A study of Mus musculus with 6 samples.

Results

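The genes described here are 36 mouse genes of the antioxidant system: the transcription factor NRF2 (gene Nfe2l2) and its regulators, and the enzymes of glutathione, thioredoxin and peroxiredoxin, superoxide and haem metabolism. They were chosen by name. Of the 36, 32 were among the 17872 genes of the count table and 4 (Gsta4, Gsto1, Mgst1 and Txnip) were not analysed here. A filter on low counts left 31 of them among 13403 tested genes, and the remaining gene, Nqo1, is given by its counts. RNA was sequenced from BV2 cells, a mouse microglial line immortalised with viral oncogenes, in 3 wild-type control libraries and 3 libraries labelled Tfam knockout, made by CRISPR-Cas9 and listed with no further treatment. The protocol names continuous puromycin at 2 µg/mL after editing, without saying whether the controls were also kept in it, and the labels do not tell whether 1 clone or a mixed population was edited. The product of Tfam coats mitochondrial DNA and is needed for its transcription.

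Library totals lay between 13850691 and 28418133 counts. Tfam mRNA was at 39.0, 38.5 and 37.1 CPM in the controls and 41.0, 42.7 and 43.2 CPM in the libraries labelled knockout (CPM are counts per 1000000, scaled by TMM factors; replicates 1, 2 and 3 in that order here and below), and so was not lower (log2 fold change 0.14 ± 0.0869 SE, adjusted p = 0.193, edgeR's quasi-likelihood test). The label is therefore used as given, and directions are stated between the labelled groups. Each of the 12 tested mRNAs encoded in mitochondria fell, and mitochondrial genes took 3.79% ± 0.456 of counts in controls and 1.40% ± 0.0299 in the libraries labelled knockout (SD, n = 3 each; p = 0.1 by an exact permutation test, two-sided, which is the lowest value 3 against 3 libraries allow). The macrophage markers Cd68, Csf1r, Ptprc and Adgre1 were all above 100 CPM in every library, as were Spi1 and Fcgr3 of the same list, but Aif1 was low at 2.97 ± 0.452 CPM in the controls, with a log2 fold change of -0.49 that did not pass (adjusted p = 0.151, edgeR). The markers of brain microglia Tmem119 and Sall1 were under 1 CPM in every library and Cx3cr1 was at 1.82 ± 0.242 against 0.794 ± 0.438 CPM. Of 9 tested markers of microglia and macrophages 1 rose and 6 fell, and the sum of the list was 3139 to 3444 CPM in controls and 2391 to 2607 CPM in the libraries labelled knockout; its part in the results on antioxidant genes was not tested. Summed marker levels were at most 3.13 CPM for neurons, 2.83 for fibroblasts, 1.53 for astrocytes and 0.767 for T and B cells. The oligodendrocyte list stood at 24.0 to 25.5 CPM in controls and 11.9 to 14.1 CPM in the libraries labelled knockout, most of it from Mbp. The labels do not say whether replicates were separate cultures, so the p-values rest on a spread that may be technical only, and in bulk RNA fewer cells of a kind and less RNA per cell cannot be told apart.

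Cells keep reactive oxygen in check through systems that draw on NADPH. Superoxide dismutases turn superoxide into hydrogen peroxide, and catalase, glutathione peroxidases and peroxiredoxins then remove the peroxide; glutathione reductase and thioredoxin reductases return the spent glutathione and thioredoxin to their working form. Glutathione S-transferases couple glutathione to reactive compounds, and haem oxygenase opens haem to biliverdin, which biliverdin reductases convert to bilirubin. Many of these genes are induced by NRF2, which KEAP1 holds down in unstressed cells and which binds, with small MAF proteins, to antioxidant response elements that BACH1 can occupy as a repressor. In microglia and macrophages these systems stand beside the NADPH oxidase, which makes superoxide on purpose.

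The antioxidant genes moved in both directions. Of 31 tested, 8 rose and 11 fell in the libraries labelled knockout at an adjusted p below 0.05, and 12 did not pass. Among all tested genes 21.3% were called higher and 22.9% lower, 44.2% in all, and 52.2% of the tested genes averaging 10 CPM or more were called, a level that 29 of the 31 genes reach. The share of antioxidant genes called, 61.3%, stands beside these shares. Their median log2 fold change was -0.04, against 0.0012 over all tested genes, while the median size of the change without its sign was 0.47 against 0.30. The groups did not overlap for 19 of the 31 genes, against 52.9% of all tested genes. Calls of 2-fold or more numbered 5, against 8.51% of all tested genes: Txnrd1 and Sod2 rose (2.97% of all tested genes) and Hmox1, Mgst3 and Gstm1 fell (5.54%). The count of 8 higher genes fell to 5 or 6 when any 1 library was left out, with 5 without control 3; the calls that were lost were among those of Nfe2l2, Gss and Blvrb. The other 16 calls held under every alternative but a test against a 1.5-fold change, which kept 8: Txnrd1, Sod2, Srxn1, Gclm, Hmox1, Mgst3, Gstm1 and Blvra.

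**Figure D1:**
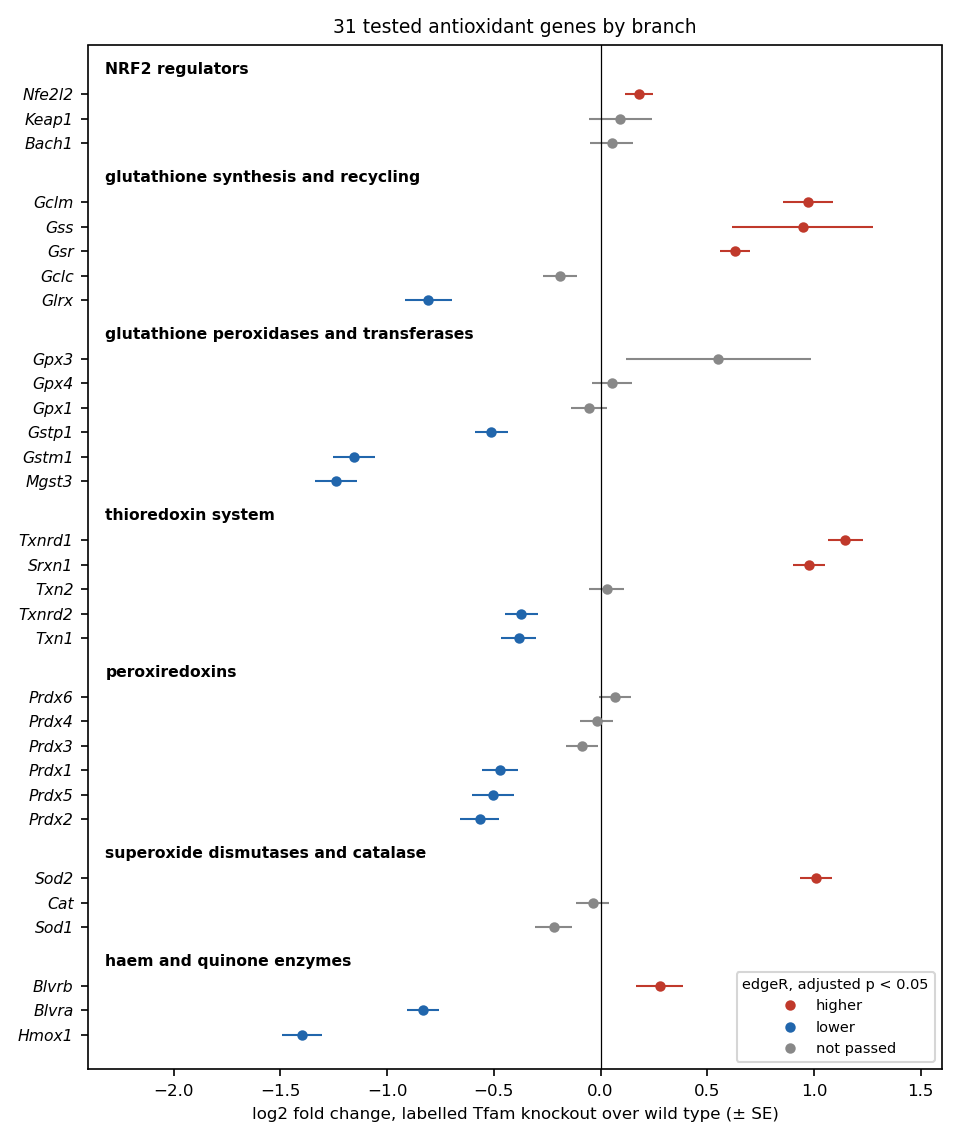
Log2 fold change (x axis, libraries labelled Tfam knockout over wild-type controls) of the 31 tested antioxidant genes, grouped by branch, with bars for the SE of edgeR's fit (n = 3 libraries a group); red points were called higher, blue points lower and grey points did not pass at an adjusted p below 0.05. The largest increase is Txnrd1 (1.15) and the largest decrease Hmox1 (-1.40), and 3 of the 7 branches hold calls in both directions.

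Transcript length moved with the direction of the calls. Of 13 antioxidant genes with a transcript under 1500 bases, 1 rose and 7 fell, and of the 18 longer ones 7 rose and 4 fell. Across all tested genes the short ones had 11.3% higher and 26.8% lower calls with a median log2 fold change of -0.13, and the longer ones 24.0% higher and 21.9% lower calls with a median of 0.02. With a correction for length and GC content as offsets, added after the data were seen, all 19 calls held, and Gpx4 (0.23, adjusted p = 0.00878, edgeR) and Gclc (-0.22, adjusted p = 0.0170) passed as well. Reads could also be split between near-identical copies: the count table holds 141 counts for Gstm2-ps1 (12836 for Gstm1), 82 for Gstp2 (19309 for Gstp1), 46 for Txn-ps1 (25887 for Txn1) and 434 for Gm21399 and Gm7204 together (73105 for Prdx1), summed over the 6 libraries, and a copy each of Prdx2 and Sod1 was not analysed here.

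Promoter sequences are shown for the called genes in which the core of the antioxidant response element lies upstream of the start site, because these genes moved in both directions. RefSeq windows of build GRCm38.p6, from 250 bases before to 50 after the start, were at hand for 28 of the 32 genes; those of Gclc, Gsr, Prdx6 and Hmox1 are not shown. The motif searched was TGACNNNGC on both strands, which overlaps the site bound by AP-1 factors in some of its forms. It was found for 7 of the 28 genes (25.0%), against 14.0% of the 27025 symbols in the table and 12.4% of all 32851 windows. Of the 7 higher genes with a window 4 held it (Nfe2l2, Gclm, Txnrd1 and Srxn1), of the 10 lower genes 2 (Prdx1 and Blvra) and of the 10 tested genes that did not pass 1 (Sod1). Each line reads 5′ to 3′ on the gene's strand, with the motif in capitals; in Nfe2l2 it lies on the gene's strand and in the others on the opposite strand, where it reads GCNNNGTCA.
Nfe2l2: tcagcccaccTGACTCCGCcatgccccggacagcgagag
Gclm: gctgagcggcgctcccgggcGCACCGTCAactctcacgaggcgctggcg
Txnrd1: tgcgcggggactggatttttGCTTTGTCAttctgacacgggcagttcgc
Prdx1: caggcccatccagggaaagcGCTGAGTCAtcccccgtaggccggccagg
Blvra: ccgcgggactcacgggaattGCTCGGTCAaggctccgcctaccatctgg
The stretches are chr2:75704875-75704913 (-) for Nfe2l2, chr3:122245403-122245451 (+) for Gclm, chr10:82859094-82859142 (+) for Txnrd1 (1 of its 3 windows), chr4:116685446-116685494 (+) for Prdx1 and chr2:127070588-127070636 (+) for Blvra. The motif begins 240 bases upstream of the start in Nfe2l2, 134 in Gclm, 92 in Txnrd1, 133 in Prdx1 and 49 in Blvra, and in Srxn1 at base 29 of the transcript. A match of letters is not a bound site.

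The regulators themselves differed little. Nfe2l2, which encodes NRF2, was at 156, 155 and 156 CPM in the controls and 173, 177 and 179 CPM in the libraries labelled knockout. All 3 libraries labelled knockout were above all controls, by a small margin (log2 fold change 0.18 ± 0.0670 SE, adjusted p = 0.0363, edgeR). Leaving out any control, or the second or the third library labelled knockout, ended this call (adjusted p from 0.0504 to 0.135) as did the replicate number as a block (0.0857). Keap1, the adaptor that sends NRF2 to degradation, was at 18.4, 13.2 and 16.0 CPM in the controls and 15.5, 20.5 and 15.1 CPM in the libraries labelled knockout, with overlapping groups (log2 fold change 0.09 ± 0.146 SE, adjusted p = 0.64). The repressor Bach1 likewise overlapped between groups, at 30.8 ± 3.19 against 32.0 ± 1.83 CPM (mean ± SD, n = 3 each; adjusted p = 0.714). Keap1 shares exon sequence with a gene on the other strand, Gm16754 (27 counts over the 6 libraries, against 1848 for Keap1), and the library kit does not mark strand, so reads of the pair cannot be told apart.

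Some of the other genes that act on NRF2 showed larger differences, but the list as a whole was near the background. Of 12 tested partners and regulators, 3 rose, 3 fell and 6 did not pass, while 44.2% of all tested genes were called. The median size of the change without its sign was 0.30 on the log2 scale in this list and 0.30 over all tested genes. The largest change was in Sqstm1, which encodes p62, a selective autophagy receptor that binds KEAP1, with 633, 612 and 587 CPM in the controls and 2129.9, 2111 and 2062 CPM in the libraries labelled knockout. The libraries labelled knockout were more than 3 times above the controls (3.44-fold, log2 fold change 1.78 ± 0.0832 SE, adjusted p = 2.96e-11, edgeR). Nfe2l1, which encodes the related factor NRF1, rose from 157 ± 9.84 to 338 ± 6.51 CPM (2.15-fold, adjusted p = 3.26e-09). Rbx1, the RING subunit of the ligase that KEAP1 serves, fell by 0.55 on the log2 scale (adjusted p = 0.000268), and Dpp3, a peptidase that binds KEAP1, fell by 0.36 (adjusted p = 0.00232).

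In glutathione synthesis and recycling, 3 of 5 genes rose and 1 fell, and the groups did not overlap for any of the 5. Among all tested genes 44.2% were called, and the groups did not overlap for 52.9%. Gclm, the modifier subunit of glutamate-cysteine ligase, which carries out the first step of glutathione synthesis, was at 15.9, 14.9 and 13.2 CPM in the controls and 25.5, 30.3 and 31.2 CPM in the libraries labelled knockout. It was close to 2-fold higher (1.96-fold, log2 fold change 0.97 ± 0.117 SE, adjusted p = 3.47e-06, edgeR). Its catalytic partner Gclc was at 72.1, 66.9 and 72.2 CPM in the controls and 62.6, 65.0 and 57.4 CPM in the libraries labelled knockout, lower in every library labelled knockout but without passing (log2 fold change -0.19 ± 0.0800 SE, adjusted p = 0.0627). Gclc passed as lower without labelled knockout 2 (adjusted p = 0.0429) and with genes kept at 5 CPM in 3 libraries (0.0422). Within a library the counts of Gclm were 0.220, 0.222 and 0.182 of those of Gclc in controls and 0.407, 0.466 and 0.543 in the libraries labelled knockout, a ratio that does not depend on scaling.

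Gsr, glutathione reductase, rose in a narrow band, with 88.9, 80.9 and 84.6 CPM in the controls and 130.2, 131 and 132 CPM in the libraries labelled knockout. No library labelled knockout came near a control (1.55-fold, log2 fold change 0.63 ± 0.0710 SE, adjusted p = 1.83e-06, edgeR). Gss, glutathione synthetase, had few reads: they numbered 59, 12 and 23 in the controls, against 72, 53 and 36 in the libraries labelled knockout. Its exons overlap 3 genes on the other strand (Acss2, Gssos1 and Gssos2), and its call (log2 fold change 0.95 ± 0.331 SE, adjusted p = 0.0275) did not survive leaving out control 2, control 3, labelled knockout 1 or labelled knockout 2 (adjusted p from 0.0579 to 0.118). The gene that fell was Glrx, glutaredoxin, which uses glutathione to undo mixed disulfides on proteins. Its levels were 38.7, 39.6 and 42.6 CPM in the controls and 26.5, 20.3 and 22.0 CPM in the libraries labelled knockout, a fall of 0.81 ± 0.109 on the log2 scale (adjusted p = 1.27e-05, edgeR).

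Of the 6 tested glutathione transferases and peroxidases, the 3 transferases fell and the 3 peroxidases did not pass. The mu-class transferase Gstm1 was at 140.2, 184 and 158 CPM in the controls and 80.5, 65.9 and 69.1 CPM in the libraries labelled knockout. Every control was at least 1.5 times above every library labelled knockout (log2 fold change -1.16 ± 0.0985 SE, adjusted p = 6.61e-08, edgeR). Mgst3, a membrane-bound transferase of the microsomal family, was at 64.5, 78.1 and 71.3 CPM in the controls and 33.4, 29.1 and 27.6 CPM in the libraries labelled knockout. Its fall was of the same order (log2 fold change -1.24 ± 0.0997 SE, adjusted p = 3.21e-08). The pi-class transferase Gstp1 fell less, from 204 ± 7.82 to 143 ± 13.3 CPM (mean ± SD, n = 3 each; log2 fold change -0.51 ± 0.0780 SE, adjusted p = 4.59e-05).

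The selenium-containing peroxidases Gpx1, Gpx3 and Gpx4 overlapped between groups. Gpx1, which reduces hydrogen peroxide in the cytosol and mitochondria, was at 168 ± 7.88 against 162 ± 19.3 CPM (log2 fold change -0.05, adjusted p = 0.643), and its sign changed with library totals (0.045). Gpx4, which reduces lipid peroxides and guards against ferroptosis, was at 215 ± 18.6 against 223 ± 29.2 CPM (adjusted p = 0.672); a processed copy with near-identical sequence, Gpx4-ps2, held 4612 counts over the 6 libraries against 23982 for Gpx4, so its level is uncertain. The secreted peroxidase Gpx3 was near the limit of the test, with 45, 12 and 10 reads in the controls, 19, 42 and 22 in the libraries labelled knockout, and did not pass (adjusted p = 0.322).

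Other glutathione genes were called both ways. Of 20 tested in a further list, 3 rose and 5 fell, and 4 of the 5 were mu-class or microsomal transferases; without control 2 or labelled knockout 2, 3 fell. The calls were 40.0% of the list, against 44.2% of all tested genes. Gstm2 fell from 35.6 ± 6.62 to 14.8 ± 1.04 CPM (log2 fold change -1.26 ± 0.130 SE, adjusted p = 6.27e-07, edgeR), Mgst2 fell from 67.1 ± 7.96 to 35.5 ± 1.98 CPM (log2 fold change -0.91 ± 0.0979 SE, adjusted p = 1.03e-06), and Gstcd, a gene with a transferase-like domain, fell by 0.50 on the log2 scale (adjusted p = 3.95e-05). Gstm5 fell by 0.65 at 5.63 ± 1.12 against 3.57 ± 0.756 CPM, a call that was lost without control 2 (adjusted p = 0.156) or labelled knockout 2 (0.107).

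**Figure D2:**
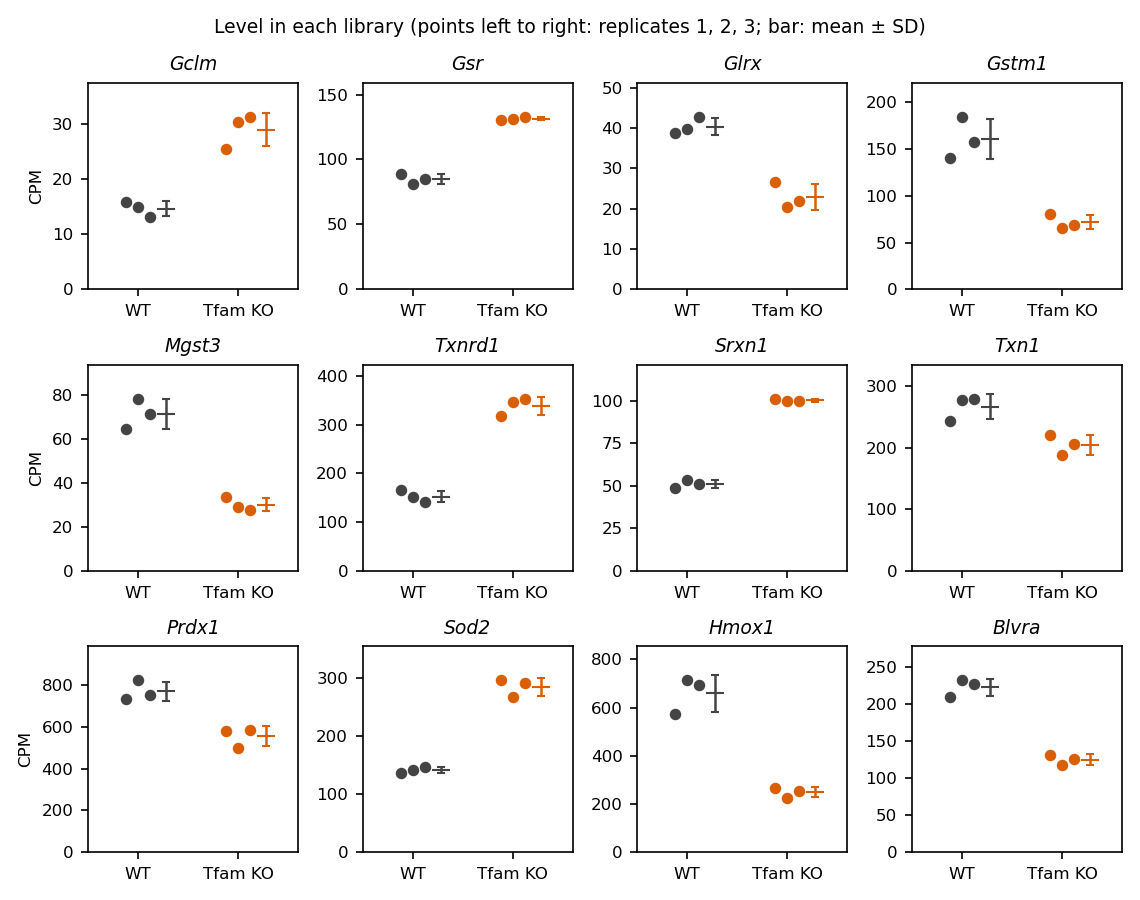
TMM-scaled CPM (y axis, linear and starting at 0) of 12 antioxidant genes in each library, with replicates 1, 2 and 3 from left to right and the mean ± SD of 3 libraries beside them; grey is wild type and orange is labelled Tfam knockout. In none of the 12 do the groups overlap: Gclm, Gsr, Txnrd1, Srxn1 and Sod2 are higher in the libraries labelled knockout and the other 7 are lower. All 12 are called genes, and the groups did not overlap for 52.9% of all tested genes.

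Of the 5 tested genes of the thioredoxin system 2 rose and 2 fell. Txnrd1, the cytosolic thioredoxin reductase, showed the largest rise of the antioxidant genes, with 165, 151 and 141 CPM in the controls and 317, 345 and 353 CPM in the libraries labelled knockout. All 3 libraries labelled knockout were far above the highest control (2.22-fold, log2 fold change 1.15 ± 0.0801 SE, adjusted p = 5.52e-09, edgeR). Its substrate Txn1, cytosolic thioredoxin, was at 243, 277 and 279 CPM in the controls and 220.3, 187 and 205 CPM in the libraries labelled knockout. It fell in every library labelled knockout, by 0.38 ± 0.0821 on the log2 scale (adjusted p = 0.00112). Counts of Txnrd1 were 0.680, 0.545 and 0.506 of those of Txn1 in the controls and 1.44, 1.84 and 1.72 of them in the libraries labelled knockout. The reductase thus had fewer reads than its substrate in all controls and more in all libraries labelled knockout. This crossing holds for reads only, since the longest transcript has 3622 bases for Txnrd1 and 1051 for Txn1. Per kilobase, Txnrd1 stayed below Txn1, at 42.1 against 253 CPM in the controls and 93.4 against 194 in the libraries labelled knockout.

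Txnrd2, the mitochondrial reductase, was at 74.4, 75.0 and 79.8 CPM in the controls and 62.0, 59.8 and 55.2 CPM in the libraries labelled knockout. It was lower in every library labelled knockout (log2 fold change -0.37 ± 0.0790 SE, adjusted p = 0.00105, edgeR). Mitochondrial thioredoxin, Txn2, overlapped between groups at 212 ± 4.03 against 216 ± 22.6 CPM (log2 fold change 0.03, adjusted p = 0.804). Srxn1, sulfiredoxin, which repairs peroxiredoxins oxidised beyond the reach of thioredoxin, was at 48.5, 53.6 and 50.7 CPM in the controls and 101, 99.96 and 99.5 CPM in the libraries labelled knockout. Its libraries lay close together within each group and far apart between them (1.97-fold, log2 fold change 0.98 ± 0.0755 SE, adjusted p = 1.94e-08). Its counts were 0.0662, 0.0653 and 0.0676 of those of Prdx1, a gene whose product it repairs, in the controls and 0.174, 0.200 and 0.171 of them in the libraries labelled knockout.

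Among 17 tested genes of thiol repair and related thioredoxin proteins, 4 rose and 5 fell, and 2 rose without control 3, labelled knockout 1 or labelled knockout 3. With all libraries 52.9% of the list were called, against 44.2% of all tested genes. The mitochondrial methionine sulfoxide reductase Msrb2 fell from 6.14 ± 0.267 to 2.88 ± 0.517 CPM (log2 fold change -1.09 ± 0.211 SE, adjusted p = 0.000474, edgeR). Park7, which encodes DJ-1, a protein linked to redox sensing, fell from 332 ± 43.5 to 212 ± 17.5 CPM (adjusted p = 3.14e-05), and nucleoredoxin, Nxn, fell by 0.61 on the log2 scale (adjusted p = 6.19e-05). The arrestin-domain protein Arrdc4, a relative of Txnip, rose from 34.0 ± 3.50 to 46.8 ± 4.24 CPM (1.37-fold, adjusted p = 0.00149).

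Of the 6 peroxiredoxins, 3 fell and 3 did not pass. Prdx1, the cytosolic form that thioredoxin recharges, was at 732, 820.4 and 750.0 CPM in the controls and 579.5, 499.8 and 583 CPM in the libraries labelled knockout. The groups were well apart, with a modest size of change (log2 fold change -0.47 ± 0.0856 SE, adjusted p = 0.000266, edgeR). Prdx2, another cytosolic form, was at 196, 236 and 229 CPM in the controls and 166, 129.9 and 149.6 CPM in the libraries labelled knockout (log2 fold change -0.57 ± 0.0928 SE, adjusted p = 9.6e-05). Prdx5, found in mitochondria, peroxisomes and cytosol, was at 204, 249 and 261 CPM in the controls and 184, 146 and 173 CPM in the libraries labelled knockout (log2 fold change -0.50 ± 0.0981 SE, adjusted p = 0.000475). For Prdx5 the lowest control and the highest library labelled knockout, both replicate 1, were the nearest, and part of its sequence overlaps Trmt112 on the other strand (8059 counts over the 6 libraries, against 22168 for Prdx5), as that of Prdx2 overlaps Rnaseh2a.

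The other peroxiredoxins had overlapping groups. The mitochondrial form Prdx3 was at 176 ± 4.51 against 166 ± 14.2 CPM (adjusted p = 0.381), Prdx4 of the endoplasmic reticulum at 142 ± 8.64 against 139.8 ± 10.1 CPM (adjusted p = 0.881), and Prdx6, which uses glutathione in place of thioredoxin, at 259.8 ± 5.13 against 272 ± 20.5 CPM (adjusted p = 0.505). Summed over the 6 genes, peroxiredoxins held 1703, 1898 and 1811 CPM in the controls and 1548, 1309.9 and 1486 CPM in the libraries labelled knockout, with Prdx1 the largest part. Per kilobase of transcript, Prdx1 stood highest in the family in both groups, at 335 CPM per kilobase in the controls and 242 in the libraries labelled knockout, followed in the controls by Prdx5 (189 ± 23.9), Prdx4 (143 ± 8.73), Prdx2 (137 ± 13.1), Prdx3 (119 ± 3.05) and Prdx6 (109 ± 2.15; SD, n = 3). Prdx4 and Prdx2 lay within each other's spread. In the libraries labelled knockout Prdx4 (141 ± 10.2) and Prdx5 (133 ± 15.3) lay within each other's spread.

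In the superoxide branch 1 of 3 genes rose (33.3% called, against 44.2% of all tested genes). Sod2, the manganese superoxide dismutase of the mitochondrial matrix, was at 137, 141 and 147 CPM in the controls and 296, 267 and 292 CPM in the libraries labelled knockout. Each library labelled knockout was well above each control (2.01-fold, log2 fold change 1.01 ± 0.0733 SE, adjusted p = 9.17e-09, edgeR). Sod2 had 0.818, 0.688 and 0.795 of the counts of Sod1 in the controls and 1.73, 1.89 and 1.76 of them in the libraries labelled knockout. The longest transcript of Sod2 has 5861 bases, against 641 for Sod1. Per kilobase, Sod2 stayed below Sod1, at 24.2 against 290 CPM in the controls and 48.6 against 249 in the libraries labelled knockout. Sod1, the copper-zinc enzyme of the cytosol, was at 168, 205 and 185 CPM in the controls and 171, 141 and 166 CPM in the libraries labelled knockout. The groups overlapped and the test was just missed (log2 fold change -0.22 ± 0.0881 SE, adjusted p = 0.052); Sod1 passed as lower without control 1 (adjusted p = 0.0189) or labelled knockout 1 (0.0283), and its log2 fold change was 0.0022 with length and GC offsets. Catalase, Cat, the peroxisomal enzyme that splits hydrogen peroxide, was at 88.9 ± 7.27 against 86.7 ± 1.92 CPM (adjusted p = 0.728). Among the listed enzymes described here as wholly or partly mitochondrial, Sod2 rose, Txnrd2 and Prdx5 fell, and Prdx3, Txn2 and Gpx1 did not pass.

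Genes that make or handle superoxide were called both ways, with 4 of 11 tested higher and 4 lower (72.7% called, against 44.2% of all tested genes). Cybb, which encodes the catalytic gp91phox subunit of the phagocyte NADPH oxidase, rose from 220.4 ± 7.21 to 489 ± 23.4 CPM (2.22-fold, log2 fold change 1.15 ± 0.0754 SE, adjusted p = 2.39e-09, edgeR). The organiser subunit Ncf1 rose from 38.4 ± 1.93 to 65.5 ± 2.83 CPM (1.70-fold, adjusted p = 1.41e-06). Xanthine dehydrogenase, Xdh, another source of superoxide, fell by 0.78 on the log2 scale (adjusted p = 5.8e-07).

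The haem branch held the largest fall. Hmox1, the inducible haem oxygenase, was at 572, 712 and 692 CPM in the controls and 267, 227 and 255 CPM in the libraries labelled knockout. Every control was at least 2 times above every library labelled knockout (log2 fold change -1.40 ± 0.0946 SE, adjusted p = 3.51e-09, edgeR). Per kilobase of transcript Hmox1 had the highest level of the 32 genes in the controls (419.8 ± 48.3 CPM per kilobase), ahead of Prdx1 (335 ± 20.3); in the libraries labelled knockout it was at 159 ± 13.3, below Sod1 at 249 ± 24.4 and Prdx1 at 242 ± 20.5. These 2 and Gpx4 (224 ± 29.4) were the highest there and lay within each other's spread. Lengths were those of the longest transcript, 1569 bases for Hmox1 and 2294 for Prdx1, and the order in the controls rests on them. Before division by length, Prdx1 stood above Hmox1 in the controls, at 768 ± 46.7 against 659 ± 75.8 CPM. Blvra, the biliverdin reductase that makes bilirubin from the product of haem oxygenase, was at 209, 232 and 226 CPM in the controls and 132, 117 and 125 CPM in the libraries labelled knockout. It fell with no overlap (log2 fold change -0.83 ± 0.0745 SE, adjusted p = 1.21e-07).

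The second biliverdin reductase, Blvrb, went the other way with less support. Its levels were 35.8, 43.6 and 43.0 CPM in the controls and 55.7, 42.4 and 49.5 CPM in the libraries labelled knockout, and the groups overlapped. Its call (log2 fold change 0.28 ± 0.110 SE, adjusted p = 0.0496, edgeR) ended when control 1, control 3, labelled knockout 1 or labelled knockout 3 was left out (adjusted p from 0.0617 to 0.221), with DESeq2 (0.0640), with genes kept at 5 CPM in 3 libraries (0.0569) and with the replicate number as a block (0.104). Counts of Hmox1 were 16.0, 16.3 and 16.1 times those of Blvrb in the controls and 4.80, 5.35 and 5.15 times those in the libraries labelled knockout. Nqo1, the quinone reductase often used to read out NRF2, was hardly detected, with 9, 2 and 5 reads in the controls, 4, 8 and 2 in the libraries labelled knockout, and could not be tested.

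Of 14 tested genes of haem synthesis, transport and breakdown, 5 rose and 3 fell (57.1% called, against 44.2% of all tested genes). Flvcr1, a haem exporter, rose from 80.1 ± 3.76 to 106 ± 11.4 CPM (1.32-fold, adjusted p = 0.000891, edgeR). Within haem synthesis, Alad rose from 13.6 ± 1.39 to 19.1 ± 3.29 CPM (adjusted p = 0.00778; 0.0609 without labelled knockout 1), while Uros fell by 0.70 and Urod by 0.44 on the log2 scale (adjusted p = 0.00113 and 0.00198). Without labelled knockout 3 the higher count was 3.

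**Figure D3:**
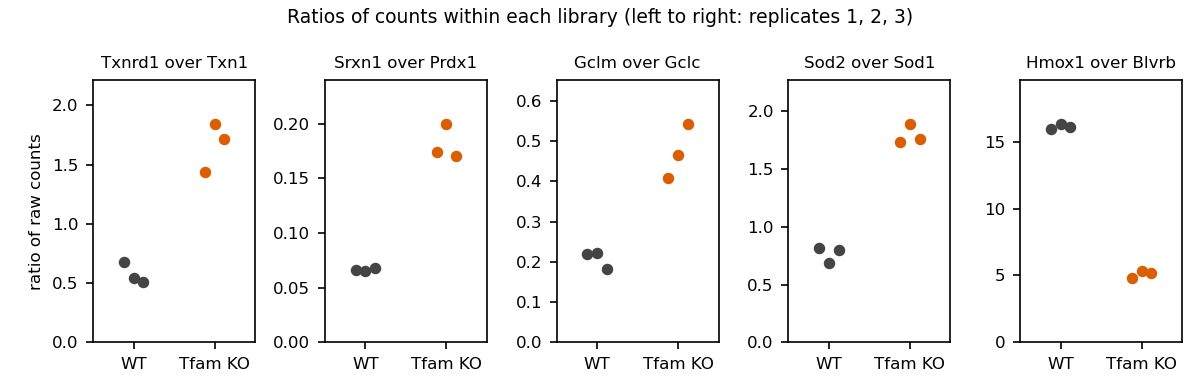
Ratios of raw counts within each library (y axes, linear and starting at 0) for 5 pairs of antioxidant genes, with replicates 1, 2 and 3 from left to right in wild type (grey) and labelled Tfam knockout (orange). The groups do not overlap in any of the 5. Txnrd1 over Txn1 is at most 0.680 in the controls and at least 1.44 in the libraries labelled knockout. Hmox1 over Blvrb is at least 16.0 in the controls and at most 5.35 in the libraries labelled knockout. Each pair joins genes with log2 fold changes of opposite sign, so the separation repeats those changes and is not further support. Transcript length is not taken into account.

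Reported NRF2 targets outside the 36 genes also moved both ways. In a list of 17 tested genes 4 were called higher and 9 lower, and the median of the list was -0.22 on the log2 scale. The calls were 76.5% of the list, against 44.2% of all tested genes and 52.2% of those averaging 10 CPM or more. Slc7a11, the transporter that brings in cystine for glutathione synthesis, was at 73.4, 53.4 and 51.7 CPM in the controls and 197, 238 and 212 CPM in the libraries labelled knockout. Every library labelled knockout was more than 2 times above every control (3.60-fold, log2 fold change 1.85 ± 0.113 SE, adjusted p = 1.06e-09, edgeR). The microsomal epoxide hydrolase Ephx1 changed as much in the other direction, at 135, 153 and 149.7 CPM in the controls and 40.7, 35.5 and 34.1 CPM in the libraries labelled knockout. It fell by 1.98 ± 0.0866 on the log2 scale (adjusted p = 1.22e-11). The malic enzyme Me1, a source of NADPH, fell from 445 ± 20.9 to 164 ± 10.7 CPM (log2 fold change -1.44 ± 0.0784 SE, adjusted p = 2.2e-10), and the aldehyde dehydrogenase Aldh3a1 fell from 4.16 ± 0.245 to 2.35 ± 0.459 CPM (adjusted p = 0.0117). Fth1, the heavy chain of the iron store ferritin, was picked out after its values were seen, at 8109.7, 9684 and 8998 CPM in the controls and 15399, 13504 and 13983 CPM in the libraries labelled knockout (log2 fold change 0.68 ± 0.106 SE, adjusted p = 5.8e-05). The light chain Ftl1, also picked out afterwards, did not pass, at 2838 ± 109 against 3187 ± 314 CPM (log2 fold change 0.17 ± 0.0945 SE, adjusted p = 0.162, edgeR).

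Side by side, the genes called higher held the cystine importer Slc7a11 and the modifier subunit Gclm of glutathione synthesis, the reductases Gsr and Txnrd1, the repair enzyme Srxn1 and the dismutase Sod2. The genes called lower held transferases and other enzymes that act on foreign or reactive compounds (Gstm1, Gstm2, Gstp1, Mgst2, Mgst3 and Ephx1), haem breakdown (Hmox1 and Blvra), the peroxiredoxins Prdx1, Prdx2 and Prdx5, and thioredoxin itself. Other called genes do not follow this grouping: the reductase Txnrd2 and the glutathione-dependent Glrx fell, and the transferase Gstz1 (0.31 on the log2 scale, adjusted p = 0.0124, edgeR) and the biliverdin reductase Blvrb rose. The grouping was made after the values were seen, as was the choice of Gstz1, and carries no test.

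**Figure D4:**
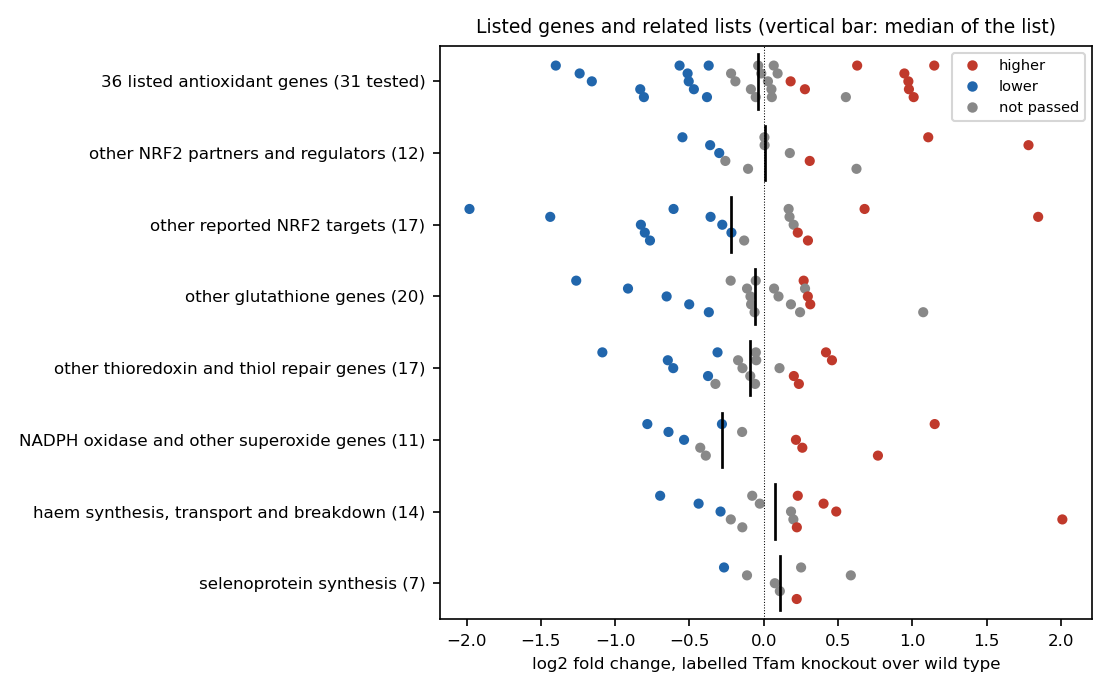
Log2 fold change (x axis, libraries labelled Tfam knockout over wild-type controls) of each tested gene of the antioxidant list and of 7 related lists, with red for called higher, blue for called lower and grey for not passed; vertical bars are list medians, and the numbers in brackets are the genes tested. Every list holds calls in both directions, with the medians between -0.28 and 0.11; the point at 2.01 in the haem list is Flvcr2, which lies under 1 CPM on average and was picked out after its value was seen.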

How the data were processed

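The authors deposited whole-number read counts per gene for 17872 genes, not normalized, and a second table of log2 values; from the values, each deposited log2 value is log2 of the count scaled to a common total plus 8. The submitters' processing notes name HISAT2 2.1.0 with featureCounts 2.0.0, SAMtools 1.9, bcl2fastq 2.17 and the build GRCm39. Per the labels, libraries were made from polyA RNA with NEBNext Ultra reagents, which keep no strand information; the rule for reads that map more than once was not stated. Totals of 13850691 to 28418133 counts per library set the precision.

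All counts entered edgeR 4.0.16 under R 4.3.3 (filterByExpr, TMM, glmQLFit, glmQLFTest, no covariates), with Benjamini-Hochberg adjustment over the 13403 tested genes and calls at an adjusted p below 0.05; 4469 genes were not tested. The step was tested on simulated counts: of 50 genes at each size among 13275 tested, it recovered 22% of those changed 1.25-fold, 86% at 1.5-fold and 98% at 2-fold, with 3.77% of its calls false. The simulation gave all genes the same dispersion. It changed few genes, as many up as down, and took them from genes above a floor of reads. In the data 44.2% of tested genes were called, so these rates need not hold there. SE was derived from the fold change and its F statistic. Alternatives were DESeq2 1.42.0, limma-voom (limma 3.58.1), other scalings and filters, the authors' log2 table, a replicate block, a test against a 1.5-fold change, each library left out, and length and GC offsets. Lengths came from the longest basic transcript of GENCODE M21 on GRCm38 (99.5% of tested genes); copies were sought there with BLAST 2.17.0 at 95% identity over 200 bases.

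The 36 genes, the 7 related lists and the marker lists were chosen with earlier results of these data known. Any of the 36 genes could be named; in each related list, the rule named up to 4 called genes, by size of change, above a mean of 1 CPM. Some results are not reported here.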

Additional observations from a re-analysis of the deposited data

How the results depend on the processing

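Of 19 called antioxidant genes, 16 kept their call and direction under every alternative except the test against a 1.5-fold change. That test called 1094 of all genes, 4 antioxidant genes higher and 4 lower. By branch it left 0 NRF2 regulators higher, 1 gene higher and 0 lower in glutathione synthesis and recycling, 0 thioredoxin genes lower, 0 peroxiredoxins lower and 0 haem genes higher. In the related lists it left 0 NRF2 partners lower, 1 NRF2 target higher and 3 lower, 0 glutathione genes higher and 2 lower, 0 thiol repair genes higher and 1 lower, 1 superoxide gene higher and 1 lower, 1 haem gene higher and 0 lower, and 0 selenoprotein synthesis genes either way.

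With DESeq2 and with a filter of 5 CPM in 3 libraries 0 haem branch genes were higher, and DESeq2 called 0 selenoprotein synthesis genes higher. The filter also gave 2 lower genes in glutathione synthesis and recycling and 1 lower gene in the superoxide branch. Library totals, which put the median log2 fold change over all genes at 0.10 and raised the share of higher genes among all calls from 48.2% to 61.8%, and the authors' log2 table (61.6%) gave Tfam log2 fold changes of 0.24 and 0.25 that passed, 2 selenoprotein synthesis genes higher and 0 lower; library totals left 3 other glutathione genes lower, and the log2 table gave 7 NRF2 targets higher. Without a filter 0 and without mitochondrial genes 2 selenoprotein synthesis genes were higher. Offsets for transcript length and GC content gave 2 lower genes in glutathione synthesis and recycling, 1 higher peroxidase (Gpx4) and 0 selenoprotein synthesis genes higher.

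No sign of pairing by replicate number was seen: the deviations of same-numbered libraries correlated at -0.10, -0.11 and 0.040. Not every library correlated best with its own number. With 3 libraries a group, such correlations cannot show that the samples were unpaired. With the replicate number as a block 0 NRF2 regulators, 0 haem branch genes, 2 thiol repair genes and 0 selenoprotein synthesis genes were higher and 3 other glutathione genes were lower, and of the antioxidant genes Nfe2l2 and Blvrb lost their call.

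Some genes that did not pass changed sign. With library totals and with the authors' log2 table these were Gpx1 (0.045 and 0.039), Prdx3 (0.013 and 0.010), Prdx4 (0.083 and 0.081) and Cat (0.064 and 0.067), and with the offsets Gpx1 (0.10) and Prdx4 (0.12). Sod1, which just missed the threshold as lower (-0.22), was at 0.0022 with the offsets. With each library left out in turn, log2 fold changes ran from -0.059 to 0.24 for Keap1, -0.0078 to 0.15 for Bach1, -0.12 to 0.041 for Gpx1, -0.039 to 0.15 for Gpx4, -0.049 to 0.10 for Txn2, -0.077 to 0.030 for Prdx4 and -0.089 to 0.026 for Cat. Counts in those fits were 5 to 6 for antioxidant genes higher, 0 to 1 for NRF2 regulators higher, 1 to 2 for glutathione synthesis genes lower, 0 to 1 for superoxide genes lower and 0 to 1 for haem branch genes higher. In the related lists they were 3 to 6 for glutathione genes lower, 2 to 4 for thiol repair genes higher, 3 to 5 for haem genes higher, and 0 to 2 higher and 0 to 1 lower for selenoprotein synthesis. The cause of these changes was not tested.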

Other observations

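Gpx1, Gpx3, Gpx4, Txnrd1 and Txnrd2 are selenoproteins, which need a dedicated machinery to read a stop codon as selenocysteine. Of 7 tested genes of selenoprotein synthesis, 1 rose and 1 fell in the libraries labelled knockout (28.6% called, against 44.2% of all tested genes). Sephs2, which makes the selenium donor, fell from 87.3 ± 7.55 to 72.7 ± 6.72 CPM (mean ± SD, n = 3 each; log2 fold change -0.27 ± 0.0877 SE, adjusted p = 0.0199, edgeR) and its relative Sephs1 rose from 49.1 ± 2.63 to 57.2 ± 3.11 CPM (adjusted p = 0.0425). Both calls are near the threshold: without 1 library the adjusted p reached 0.111 for Sephs2 (control 1) and 0.113 for Sephs1 (labelled knockout 2), and the call was also lost without control 2 or labelled knockout 2 or 3 for Sephs2 and without control 1 or 3 or labelled knockout 1 for Sephs1.

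The counts of Txnrd1 were 2.22, 2.01 and 1.77 times those of Txnrd2 in the controls and 5.11, 5.78 and 6.39 times those in the libraries labelled knockout. The ranges do not overlap, and such a ratio shows unequal change, not which gene moved.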
